A study of Canis lupus familiaris with 2 samples.

Results

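The solute carriers (SLC) and ABC transporters of the cardiac left superior fat pads (LSFPs) of dogs were compared between an array of the lenti-control group and an array of the lenti-miR-206 group. Members were all probe sets with 1 gene symbol that starts with SLC and a number, or with ABC, a letter from A to G and a number. They came to 16 of 1628 probe sets, and to 13 of 823 named genes, of which 11 were SLC and 2 were ABC genes. A probe set is a group of short oligonucleotides designed to read a transcript, in some cases several related ones. NCBI's dog gene table lists 401 genes with symbols of this form, and those outside the 13 are not analysed here.

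The animals were mongrel dogs of either sex. After left thoracotomy, lentivirus was injected directly into the LSFP, the fat on the left atrium in which ganglia of the cardiac autonomic nerves lie. The lenti-control group received lentivirus with a scrambled sequence, and the lenti-miR-206 group received lentivirus that overexpresses miR-206, a microRNA best known from muscle. The LSFPs were examined 2 weeks after infection, and the sample labels state this time for the lenti-miR-206 group. Ages are not given for these groups, and the pools are taken as the groups without atrial tachypacing, because their labels name no pacing. A virus placed in this way can reach muscle, fat, nerve and vessel cells alike, and which cells were infected is not known from the arrays. Each group is taken as a pool of RNA from 3 dogs on 1 Affymetrix canine array. The paper describes such pools for its small RNA libraries. The descriptions of these samples also speak of a small RNA library, although the values are those of an mRNA array. Neither group has a replicate, so no error between dogs can be given and no test was made.

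Solute carriers move small molecules across membranes along or against gradients, whereas ABC transporters use ATP to do so. The SLC25 family lies in the inner mitochondrial membrane and exchanges nucleotides, amino acids and organic acids between the matrix and the cytosol. In heart muscle these carriers export ATP and let the reducing equivalents of glycolysis reach the respiratory chain. At the plasma membrane other families take up fatty acids, amino acids, nucleobases and organic cations.

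All values are log2 intensities. The table holds a probe set only where the arrays differ by a log2 value of at least 1, which is 2-fold, so every transporter in it had to differ and a count of higher and lower members describes these members alone. In the lenti-miR-206 pool 12 of the 16 probe sets and 10 of the 13 genes were higher, and 4 probe sets and 3 genes were lower. The share of higher members, 76.9% of the genes, was close to the share over the whole table, where 75.1% of the probe sets and 74.2% of the named genes were higher. Relative to the GAPDH controls of the array, whose differences ran from 1.16 to 1.43 with a median of 1.31, the split became 4 higher and 9 lower genes. Over all named genes 303 of the 611 higher ones exceeded this median. The bacterial spike-in controls ran from -1.17 to -1.001 with a median of -1.08, a reference that can turn lower genes only. The 3 lower members were below this median, as were 177 of the 212 lower named genes. These controls passed the same 2-fold limit as the genes, and neither reference is shown to be unchanged. A pooled tissue does not separate fewer cells of a type from less RNA per cell.

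**Figure D1:**
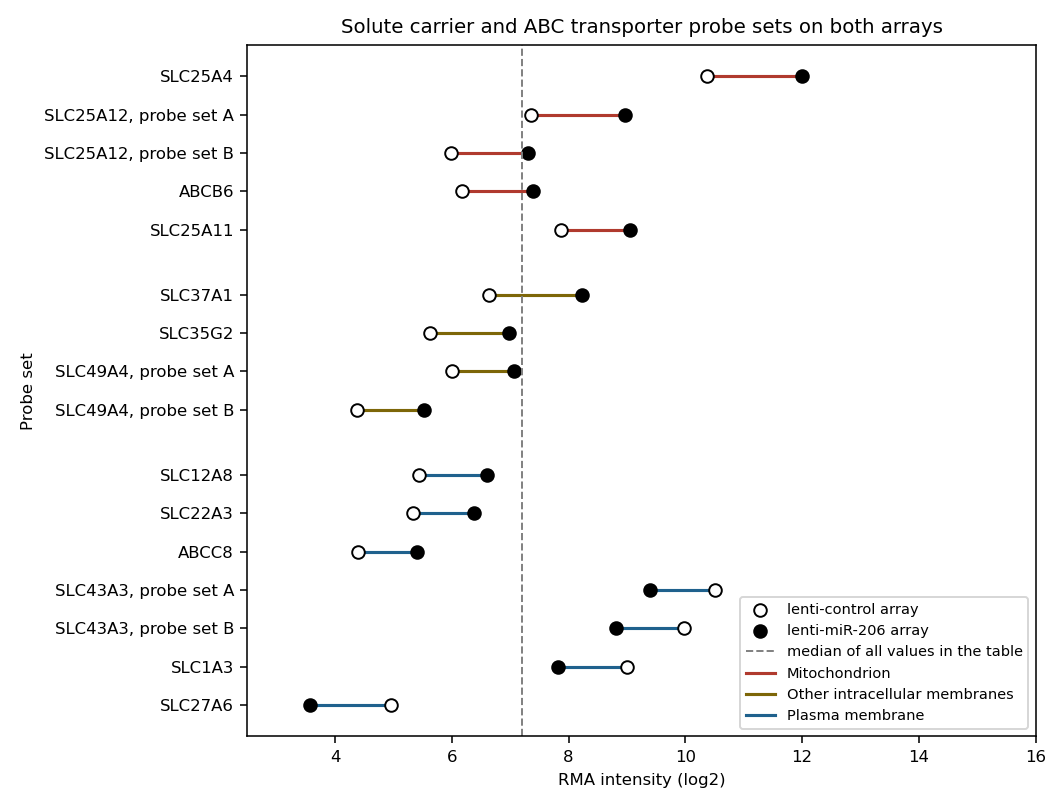
RMA intensity (log2, x axis) of the 16 transporter probe sets (y axis) on the lenti-control array (open circles) and the lenti-miR-206 array (filled circles), with lines coloured by location and a dashed line at the median of all values of the table, 7.21. All mitochondrial and other intracellular probe sets are higher on the lenti-miR-206 array, whereas those of the plasma membrane run both ways. Letters A and B mark the brighter and the dimmer probe set of a gene.

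By location, the members of the mitochondrion and of other intracellular membranes were all higher, and those of the plasma membrane were divided. The mitochondrial group had 4 genes, 4 of them higher, with a median difference of 1.41, or 2.66-fold. Relative to the GAPDH controls it had 2 higher and 2 lower genes and a median of 0.10. Relative to the actin control the split was the same, with a median of 0.0056. The other intracellular group had 3 genes, 3 of them higher, with a median of 1.35, but SLC35G2 and SLC49A4 among them were under the median of the table on both arrays. The intracellular median became -0.059 relative to the actin control. Of 6 plasma membrane genes 3 were higher and 3 were lower. The 3 higher ones and SLC27A6 were under the median of the table on both arrays, and without them 0 higher and 2 lower genes were left. The median over all 611 higher genes of the table was 1.30, and the 10 higher transporters ranged from 1.01 to 1.64 with a median of 1.20. With so few genes, the difference between locations was not tested.

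Among the mitochondrial carriers, SLC25A4 had the largest difference of all 13 genes. SLC25A4 encodes ADP/ATP translocase 1, the isoform of heart and skeletal muscle, which exports ATP from the matrix in exchange for ADP. Its value was 10.37 with lenti-control and 12.01 with lenti-miR-206, a difference of 1.64, or 3.11-fold. Of the 1223 higher probe sets of the table, 359 had a larger difference than this one. Its probe set has the suffix s_at, which marks probes that can hybridize to several transcripts, so related translocases may add to the value.

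SLC25A12 and SLC25A11 followed in the same family. Both carry out steps of the malate-aspartate shuttle, by which NADH made in the cytosol is passed on to the mitochondria. SLC25A12 is the aspartate/glutamate carrier that heart, muscle and brain use most. Its brighter probe set read 7.36 with lenti-control and 8.97 with lenti-miR-206, a difference of 1.61, or 3.05-fold. This probe set also ends in s_at, whereas the dimmer one does not. The other probe set read 5.98 and 7.31, a difference of 1.33, or 2.52-fold. Both probe sets of SLC25A12 were thus higher and differed from each other by 0.28. SLC25A11, the carrier that exchanges malate for 2-oxoglutarate, read 7.87 and 9.05, a difference of 1.18, or 2.26-fold. Over the 3 SLC25 genes the median difference was 1.61. Relative to the GAPDH controls SLC25A4 and SLC25A12 stayed higher by 0.33 and 0.30, above the range of these controls. The other SLC25A12 probe set, at 0.024, and SLC25A11, at -0.13, were within it. The actin control of the table differed by 1.41, and relative to it SLC25A4 and the brighter SLC25A12 probe set were higher by 0.23 and 0.20 and the other SLC25A12 probe set was at -0.074.

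The other genes of the shuttle were looked up once its carriers had been found in the table. Of MDH1, MDH2, GOT1, GOT2 and SLC25A13, 2 of 5 were in the table and both were higher. GOT1, the cytosolic aspartate aminotransferase, read 10.64 with lenti-control and 12.19 with lenti-miR-206, a difference of 1.56, and its other probe set differed by 1.95. GOT2, the mitochondrial enzyme, read 10.09 and 11.36, a difference of 1.27, and its other probe set differed by 1.42. Relative to GAPDH the brighter probe sets differed by 0.25 for GOT1 and -0.039 for GOT2, so that GOT2 lost its direction with this probe set and kept it with the other, at 0.11.

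Further proteins of mitochondrial transport, from a list of 17 genes outside the SLC25 symbols, were present with 4 genes, and 4 were higher. The voltage-dependent anion channels VDAC2 and VDAC3, pores of the outer membrane, differed by 1.15 and 1.02. CPT1B, the muscle enzyme that prepares fatty acids for entry into mitochondria, read 7.35 and 8.47, a difference of 1.12. UCP1, the uncoupling protein of brown fat, belongs to the SLC25 family by sequence under another symbol and read 6.79 and 8.87, a difference of 2.07. Relative to GAPDH, UCP1 alone of these 4 genes stayed higher, by 0.77.

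ABCB6, a porphyrin transporter placed at the outer mitochondrial membrane and also found at other membranes, was the mitochondrial ABC member. It read 6.18 with lenti-control and 7.40 with lenti-miR-206, a difference of 1.21, or 2.32-fold. Relative to the GAPDH controls this difference was -0.093. The lenti-control value of ABCB6 was under the median of the table, 7.21, as was that of the dimmer SLC25A12 probe set.

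**Figure D2:**
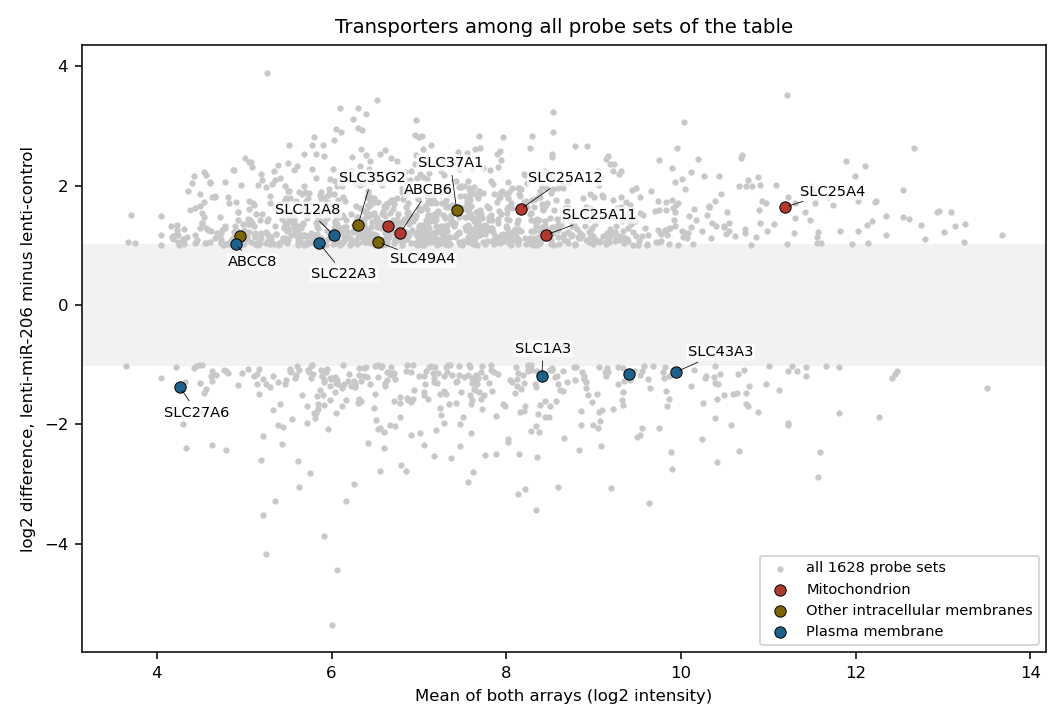
Log2 difference of lenti-miR-206 over lenti-control (y axis) against the mean of both arrays (log2 intensity, x axis) for all 1628 probe sets (grey) and for the 16 transporter probe sets (coloured by location, named at the probe set that represents the gene). No probe set lies in the pale band from -1 to 1, as smaller differences are not listed. The transporters run from -1.38 to 1.64, and the medians over all named genes of the table are 1.30 for the higher and -1.31 for the lower ones.

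Of the members on other intracellular membranes, SLC37A1 had the largest difference. SLC37A1 belongs to the sugar phosphate exchangers of the endoplasmic reticulum and carries glucose 6-phosphate and phosphate. It read 6.63 with lenti-control and 8.23 with lenti-miR-206, a difference of 1.59, or 3.02-fold, and was still higher by 0.29 relative to GAPDH and by 0.19 relative to actin. SLC35G2, a member of the nucleotide sugar transporter family whose substrate is not established, read 5.63 and 6.98, a difference of 1.35, or 2.54-fold, which lies within the range of the GAPDH controls, 0.040 above their median and at -0.059 relative to actin. SLC49A4, a protein of the lysosomal membrane, was read by a pair of probe sets. The brighter one read 6.01 and 7.06, a difference of 1.06, or 2.08-fold, and the other 4.37 and 5.53, a difference of 1.15. The SLC49A4 probe sets differed from each other by 0.097, and both turned lower relative to GAPDH, at -0.25 and -0.15. No detection call was used for any member of any location, so signal above background was not shown. The folds of SLC35G2 and SLC49A4, with values under the median of the table on both arrays, are therefore uncertain.

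At the plasma membrane, 3 transporters were higher in the lenti-miR-206 pool, by 1.01 to 1.17. SLC12A8, from the family of cation-chloride cotransporters, read 5.44 and 6.61, a difference of 1.17, or 2.25-fold. SLC22A3, the organic cation transporter OCT3 that clears catecholamines outside neurons, read 5.34 and 6.38, a difference of 1.04, or 2.05-fold. ABCC8, the sulfonylurea receptor SUR1, is not a pump but a regulatory subunit of ATP-sensitive potassium (K-ATP) channels, and in atrial muscle it is known as a partner of such channels. It read 4.40 and 5.41, a difference of 1.01, or 2.02-fold, the smallest of all members. All 3 genes had values under the median of the table, 7.21, on both arrays, and no detection call was used, so signal above background was not shown for them. Relative to the GAPDH controls SLC12A8, SLC22A3 and ABCC8 turned lower, at -0.14, -0.27 and -0.29. Of the other K-ATP channel genes KCNJ8, KCNJ11 and ABCC9, looked up with ABCC8 in view, 1 of 3 was in the table. KCNJ8, a pore subunit, read 6.80 and 8.68, a difference of 1.88. It is also counted among the smooth muscle markers below, and whether its difference bears on that of ABCC8 was not tested.

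The 3 genes that were lower with lenti-miR-206 were all plasma membrane carriers of organic substrates. SLC43A3, which takes up purine nucleobases, read 10.51 with lenti-control and 9.39 with lenti-miR-206, a difference of -1.12, which left 46.1% of the lenti-control level. Its other probe set read 9.98 and 8.82, a difference of -1.16, or 44.7% of the lenti-control level. The SLC43A3 probe sets differed from each other by 0.045. SLC1A3, the glutamate and aspartate transporter GLAST, best known from glia, read 9.00 and 7.82, a difference of -1.19, or 43.9% of the lenti-control level. SLC27A6, the fatty acid transport protein FATP6 that was described as the form of heart muscle, read 4.95 and 3.58, a difference of -1.38, or 38.5% of the lenti-control level. The lenti-miR-206 value of SLC27A6 is not far above 2.95, the lowest of all values, and is not shown to be above background. The size of this difference is therefore uncertain.

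The differences of these carriers lay close to those of the spike-in controls. Against the spike-in median the difference was -0.041 for SLC43A3, -0.11 for SLC1A3 and -0.30 for SLC27A6, and against GAPDH it was -2.42, -2.49 and -2.69. SLC43A3, with both probe sets, lay within the range of the spike-in controls, and SLC1A3 and SLC27A6 lay below it. The lower genes of the whole table, 212 in number, had a median difference of -1.31.

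**Figure D3:**
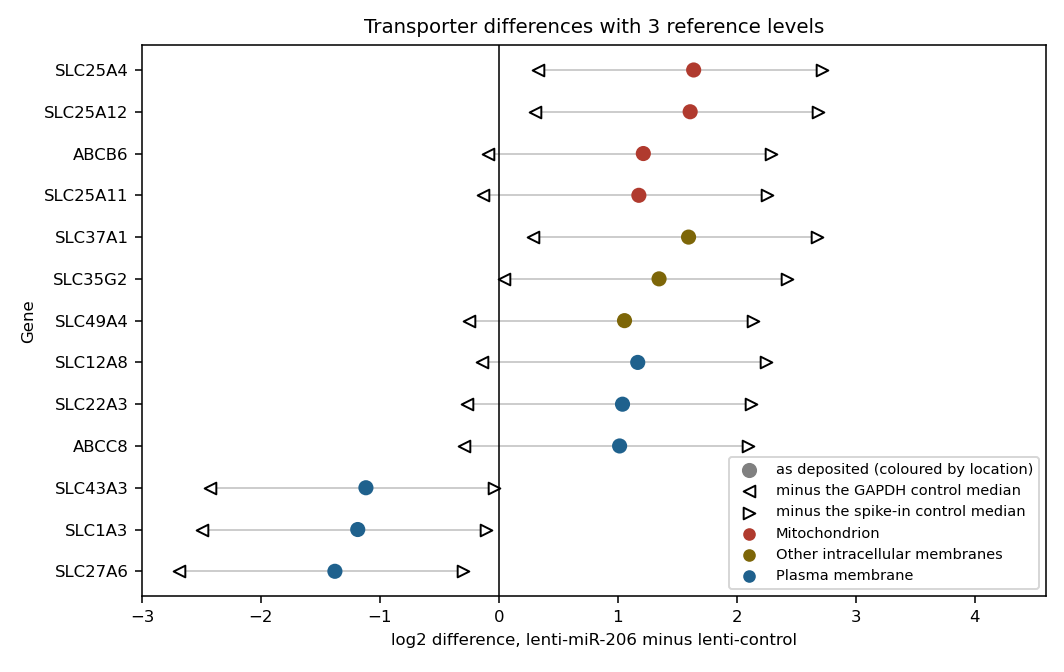
Log2 difference of lenti-miR-206 over lenti-control (x axis) for the 13 transporter genes (y axis) as deposited (filled circles, coloured by location), after subtracting the median of the GAPDH controls (left-pointing triangles) and after subtracting that of the spike-in controls (right-pointing triangles). With the GAPDH reference SLC25A4, SLC25A12 and SLC37A1 lie at 0.29 to 0.33 and SLC35G2 at 0.040, and with the spike-in reference SLC43A3 lies at -0.041, SLC1A3 at -0.11 and SLC27A6 at -0.30.

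At a threshold of 3-fold, 3 member probe sets were higher, those of SLC25A4, SLC37A1 and the brighter one of SLC25A12, and 0 were lower. Of all probe sets 24.5% were higher and 8.60% were lower by at least 3-fold. SLC25A12, SLC43A3 and SLC49A4 have a pair of probe sets each, and the pairs ran the same way. So did the probe sets of 268 of the 269 genes with several in the table. The gap within a member pair ran from 0.045 to 0.28. Over the 269 genes, some with more probe sets than a pair, the range from lowest to highest difference had a median of 0.30. Probe sets that differ by less than 2-fold are not listed, so the limit of the table favours agreement. The gap within a pair is a measure of how far listed probes of 1 transcript agree and not of the spread between dogs.

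Transport proteins outside these families were also counted from fixed lists. Of 14 genes of ion pumps and their regulators 2 were in the table, and 2 were higher. ATP2A2, the calcium pump of the cardiac sarcoplasmic reticulum, read 11.79 and 13.28, a difference of 1.48, whereas its other probe set differed by 1.24 and turned lower relative to GAPDH, at -0.066. Its inhibitor PLN read 10.77 and 12.59, a difference of 1.81, and its other probe sets differed by 2.45 and 2.40. Of 8 genes for carrier chaperones and lipid uptake 3 were in the table, and they were divided. FABP3, the fatty acid binding protein of heart muscle, read 9.89 and 11.91, a difference of 2.02. FABP4, the fatty acid binding protein of fat cells, read 14.20 and 12.80, a difference of -1.40, and the lipase LPL read 11.57 and 9.92, a difference of -1.65. Of 5 water and glycerol channels 1 was in the table, AQP7, the glycerol channel of fat cells, with a difference of -1.02. Relative to the references CPT1B turned lower with GAPDH, at -0.18, and AQP7 turned higher with the spike-in controls, at 0.055.

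Marker genes of several cell types also differed between the pools. The marker lists are not separate from the lists above, since they share PLN, FABP4, LPL, AQP7, UCP1 and KCNJ8 with them. Of 30 cardiomyocyte markers 22 were in the table and 22 were higher, with a median of 1.70 and values between 6.28 and 13.09 with lenti-control and between 9.11 and 14.27 with lenti-miR-206. Of 27 adipocyte markers 14 were in the table, and 13 were lower and 1, UCP1, was higher. The 14 genes together had a median of -1.61 and values between 6.79 and 14.20 with lenti-control and between 5.53 and 12.80 with lenti-miR-206. ADIPOQ, the hormone adiponectin that defines fat cells, read 13.21 and 11.34, so that fat was present in both pools, which are labelled as fat pads. For its small RNA libraries the paper states that fat was kept out of the RNA as far as possible. Whether fat was trimmed in the same way for these pools is not given. Of 7 glia markers 3 were in the table and 3 were lower, with a median of -1.45. Of 15 neuron markers 7 were in the table, with 6 lower, 1 higher and a median of -2.56 over the 7. The smooth muscle list had 6 of its 8 genes in the table, and 6 were higher, with a median of 1.67. The fibroblast list had 4 of its 7 genes in the table, and 4 were lower, with a median of -1.33. Of 7 macrophage markers 2 were higher and 1 was lower, and the endothelium and erythrocyte lists had 1 gene each in the table, MMRN1 with -1.15 and ANK1 with 2.61. No marker value was 0, since RMA gives every probe set a value. The part of these cell types in the transporter differences was not tested, and effects of miR-206 and differences between the pooled pieces of tissue cannot be told apart.

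**Figure D4:**
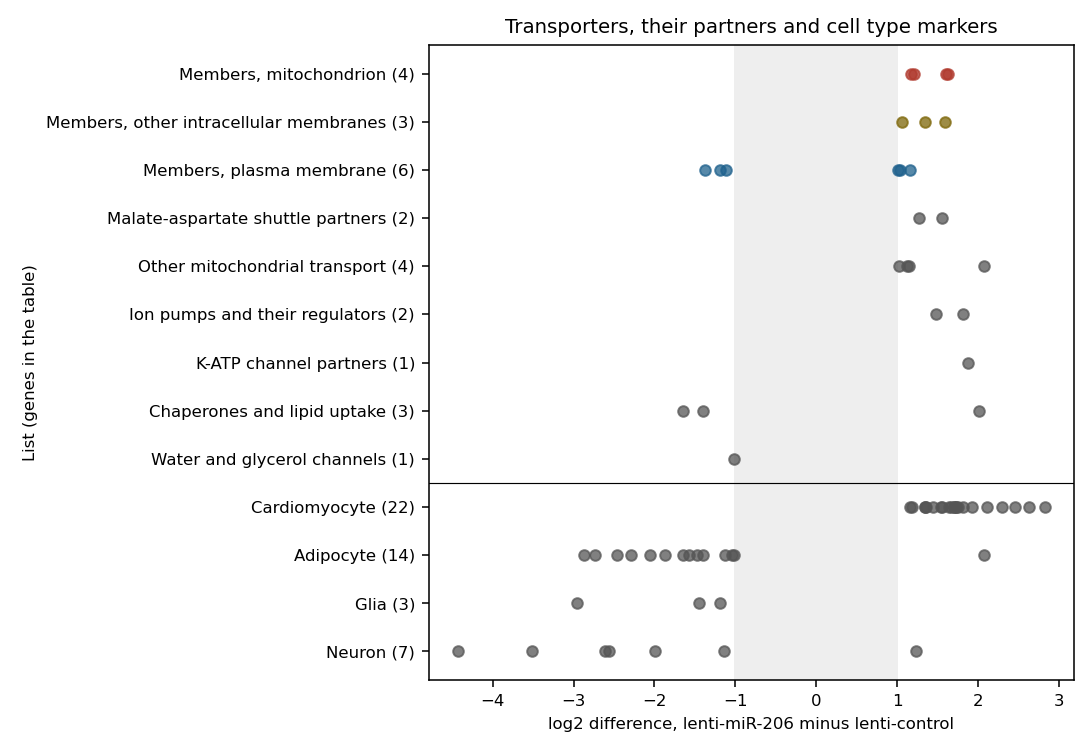
Log2 difference of lenti-miR-206 over lenti-control (x axis) for the members by location, for lists of partner and other transport genes, and below the line for cell type markers (y axis, with the number of genes in the table in brackets). Points stand for genes, and PLN, UCP1, FABP4, LPL and AQP7 appear both above and below the line. No gene lies in the band from -1 to 1, as smaller differences are not listed, and the members lie between -1.38 and 1.64, within the span from the lowest adipocyte marker, -2.87, to the highest cardiomyocyte marker, 2.83.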

How the data were processed

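The authors deposited log2 intensities made by RMA, which corrects background, normalizes arrays and summarizes probes. RMA is named in the submitters' processing notes, and its version, its software and which arrays entered it are details not given in the sources used here. Every one of the 1628 probe sets and 19 controls differed by a log2 value of at least 1.00, so genes with smaller differences are not analysed here. The table gives no depth, and its precision is limited by 1 array per group.

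Differences (lenti-miR-206 minus lenti-control) were computed in Python 3.11.15 (pandas 2.3.3, numpy 2.4.6), and figures were made in matplotlib 3.10.9. Gene symbols came from the platform annotation and were updated through Entrez identifiers with NCBI's gene table of a German Shepherd assembly. This left all 16 member symbols as annotated. No coordinates are printed, since the build behind the values is not given. A gene is represented by its probe set with the highest mean. Of the member probe sets 6 end in s_at, those of ABCC8, SLC1A3, SLC22A3 and SLC25A4 and the brighter ones of SLC25A12 and SLC49A4.

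Every member was named with its values. The members, lists, naming rule and alternatives were chosen with earlier results of these data known. The classes of SLC43A3, SLC35G2 and SLC49A4 were corrected from those of their families after the members had been found, and the lists of shuttle and K-ATP partners and of related proteins with other symbols were written then. Medians were taken over lists of at least 3 genes in the table, those that ran both ways included. None is given for the plasma membrane members, since with 3 genes on each side it would lie in the empty band between -1 and 1. The selection of members and probe sets was tested on simulated data.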

Additional observations from a re-analysis of the deposited data

How the results depend on the processing

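No paired analysis was possible because each group has 1 array, and no replicate could be left out. Finding members by the platform symbol alone changed no count. Placing SLC49A4 at the plasma membrane, as its family was first listed, was added after the data were seen and gave 4 higher and 3 lower genes there and 2 higher intracellular genes.

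Averaging the probe sets of each gene, the median was 1.34 for the mitochondrial group and 1.47 for SLC25, and no member gene changed direction. Without dim probe sets, those whose higher value was under 7.21, 6 probe sets and 5 genes were left as higher. Among them were 1 intracellular and 0 plasma membrane genes. As lower, 3 probe sets and 2 genes were left, and these 2 genes were of the plasma membrane. Without s_at and x_at probe sets 7 probe sets were higher and 3 lower, with 1 higher and 2 lower plasma membrane genes. The mitochondrial median was 1.21. The SLC25 median was then not computed, since SLC25A4 has no other probe set, nor was the intracellular median without dim probe sets. At 3-fold 3 probe sets and 3 genes were higher, 2 of them mitochondrial, 1 intracellular and 0 of the plasma membrane, and 0 probe sets, 0 genes and 0 plasma membrane genes were lower.

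Relative to the spike-in controls the medians were 2.49 for the mitochondrial group, 2.42 for the intracellular group and 2.68 for SLC25, and the members that were higher could not change direction with this reference. Relative to the GAPDH controls they were 0.10, 0.040 and 0.30. The split was then 5 higher and 11 lower probe sets and 4 higher and 9 lower genes. By location it was 2 and 2 for the mitochondrial group, 2 and 1 for the intracellular group and 0 and 6 for the plasma membrane. The genes that turned lower were ABCB6 (-0.093), ABCC8 (-0.29), SLC12A8 (-0.14), SLC22A3 (-0.27), SLC25A11 (-0.13) and SLC49A4 (-0.25). The actin control, a reference added after the data were seen, is a single probe set that passed the same 2-fold limit as the genes. The split of all named genes relative to it was not computed, so the member split has no share of the whole table beside it. Relative to the actin control 3 member probe sets and 3 genes were higher and 13 and 10 lower. By location this was 2 and 2 for the mitochondrial group, 1 and 2 for the intracellular group and 0 and 6 for the plasma membrane, and the medians of the mitochondrial group, the intracellular group and SLC25 were 0.0056, -0.059 and 0.20. The genes that turned lower were ABCB6 (-0.19), ABCC8 (-0.39), SLC12A8 (-0.24), SLC22A3 (-0.37), SLC25A11 (-0.23), SLC35G2 (-0.059) and SLC49A4 (-0.35). What set the GAPDH and spike-in controls apart was not tested.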

Other observations

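Some proteins belong to the SLC or ABC families but carry other symbols, and 38 such genes were looked up after the members had been found. The table held 4 of them, with 3 higher and 1 lower. UCP1, described above, had the largest difference among them. SLCO3A1, an organic anion transporter, read 5.92 with lenti-control and 7.21 with lenti-miR-206, a difference of 1.29 that became -0.018 relative to the GAPDH controls. MTCH1, a carrier homologue of the outer mitochondrial membrane, read 7.01 and 8.17, a difference of 1.16, or -0.15 relative to GAPDH. RHBG, an ammonium transporter of the Rhesus family, read 7.64 and 6.09, a difference of -1.55, and it was lower with both references, at -0.48 relative to the spike-in controls. The probe sets of UCP1, MTCH1 and RHBG end in s_at and can hybridize to several transcripts.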
